A study of Mus musculus with 24 samples.

Results

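The 10 genes described here are the Hippo pathway and TEAD genes Yap1, Wwtr1, Tead1, Tead4, Lats1, Lats2, Vgll4, Stk3, Sav1 and Amotl1. They were chosen by name, and all 10 were found among the 56923 gene identifiers of each count file. RNA was sequenced from the 3′ ends of transcripts in nuclei of mouse ventricular cardiomyocytes (CMs), sorted by staining for the centrosomal protein PCM1. Hearts were collected at postnatal day 1 (P1), P7 and P14, and 15, 6 and 2 hearts were pooled per library at these days. Effects of day and of pool size therefore cannot be told apart. There were 4 libraries for each day and genotype, 24 in all, and the 21 libraries that the study kept are used unless stated otherwise. Control mice were XMLC2(-)Casp2(fl/fl), so they carried the floxed Casp2 alleles without Cre, and Casp2-depleted mice were XMLC2(+)Casp2(fl/fl), with Cre under the cardiomyocyte promoter XMLC2. All strains had a C57BL/6N background, and no group carried Cre without floxed alleles, so an effect of Cre itself and of Casp2 loss cannot be told apart. The groups held 3, 4, 4, 4, 3 and 3 libraries in the order P1 control, P1 Casp2-depleted, P7 control, P7 Casp2-depleted, P14 control and P14 Casp2-depleted.

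In the Hippo pathway the kinases MST1 and MST2 (the product of Stk3), held by the scaffold SAV1, activate the kinases LATS1 and LATS2. LATS kinases phosphorylate the coactivators YAP (Yap1) and TAZ (Wwtr1) and keep them out of the nucleus, angiomotins such as AMOTL1 bind YAP, and nuclear YAP and TAZ act through the DNA-binding TEAD factors, for which VGLL4 competes. In the heart this pathway is known for restraining CM proliferation after birth.

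TEAD factors bind the M-CAT element, whose core letters are CATTCC, or GGAATG when read on the other strand. The 250 bases before the RefSeq transcription starts were searched for these letters on both strands. RefSeq promoters were matched for 7 of the 10 members, and Tead1, Tead4 and Stk3 were not among them. The letters stood before a start of 4 of the 7, namely Yap1, Wwtr1, Vgll4 and Sav1, and before a start of 14.4% of all 27025 genes in the RefSeq table. Among genes listed as targets of YAP and TAZ, 7 of 15 matched genes held them, and Ankrd1, which is taken up below, held them at 2 positions. Of all 32851 promoters, 1.02% held them at 2 or more positions. A match of letters is a description of the window and was not tested as a binding site.

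The 6 positions are shown because they carry the letters of the pathway's own DNA-binding factors at its members and at its most read target gene, Ankrd1. Each line gives 30 bases, 5′ to 3′ on the strand of the gene, with the letters of the M-CAT core in capitals. The letters stood 141 bases before the start of Yap1 (GRCm39 chr9:8004721-8004750, minus strand), 136 before Wwtr1 (chr3:57483450-57483479, minus), 82 before Vgll4 (chr6:114946229-114946258, minus), 106 before Sav1 (chr12:70033865-70033894, minus), and 210 and 123 before Ankrd1 (chr19:36097437-36097466 and chr19:36097350-36097379, minus). By the GENCODE annotation the sites of Yap1 and Wwtr1 lie upstream of the gene, that of Vgll4 lies in an intron, and those of Sav1 and Ankrd1 overlap an exon of their gene.
Yap1: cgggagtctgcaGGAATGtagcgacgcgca
Wwtr1: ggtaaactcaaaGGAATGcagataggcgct
Vgll4: cgagtggggtggGGAATGctgagaaatgcc
Sav1: cggctttcccagCATTCCcagcggcgcggg
Ankrd1, distal: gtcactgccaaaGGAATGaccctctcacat
Ankrd1, proximal: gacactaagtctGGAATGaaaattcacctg
The whole 250 bases before the RefSeq starts of both Wwtr1 (GRCm39 chr3:57483332-57483581, minus strand) and Vgll4 (chr6:114946165-114946414, minus strand) follow, to show the letters in their context in the promoter of a coactivator and of the cofactor that competes with it.
Wwtr1 promoter: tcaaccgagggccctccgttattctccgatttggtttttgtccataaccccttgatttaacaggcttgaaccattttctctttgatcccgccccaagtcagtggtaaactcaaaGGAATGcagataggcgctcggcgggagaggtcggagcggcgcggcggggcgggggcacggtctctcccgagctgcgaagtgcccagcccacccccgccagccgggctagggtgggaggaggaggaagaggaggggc
Vgll4 promoter: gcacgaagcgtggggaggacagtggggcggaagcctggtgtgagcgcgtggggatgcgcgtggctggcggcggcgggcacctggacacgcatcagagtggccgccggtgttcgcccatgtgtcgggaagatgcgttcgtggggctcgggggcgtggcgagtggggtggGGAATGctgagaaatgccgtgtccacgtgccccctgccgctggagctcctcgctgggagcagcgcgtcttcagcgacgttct

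The 21 libraries held 891817 to 2924097 reads on genes, and 34.3 to 76.1% of their uniquely placed reads fell on no gene (the no-gene share). Casp2 itself could not serve as a check of the genotype, since it had at most 5 reads in any library and 0 in every P1 and P14 library. All 12 CM markers on the list used here, led by Ttn and Ryr2, had reads, with a summed level of 10224 to 151180 CPM, the usual unit of read counts scaled to library size. Markers of other cell types summed to far less, namely 62.3 to 366 CPM for 10 fibroblast markers, 127 to 865 CPM for 10 endothelial markers (Egfl7 at 0 throughout) and 55.7 to 265 CPM for 8 macrophage markers (Cd68 at 0 throughout). CPM values are scaled by TMM factors, which bring the libraries to a common reference. Two-sided tests are those of edgeR's quasi-likelihood fit over all 20368 genes that passed a filter on low counts, and a gene was called at an adjusted p below 0.05 with an absolute log2 fold change above 1.

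Over all 21 libraries Tead1 had the most reads of the members and Lats2 next to none. Summed over them, Tead1 held 7959 reads, Stk3 4257, Vgll4 3181, Wwtr1 2591, Yap1 2033, Tead4 1311, Lats1 1258, Amotl1 526, Sav1 54 and Lats2 5. Reads were counted over the whole gene with its introns, so levels of different genes are compared per kb of gene span. On that scale the mean level was 1.08 CPM per kb for Lats1, 1.01 for Tead1, 0.871 for Vgll4, 0.840 for Yap1, 0.626 for Wwtr1, 0.525 for Tead4, 0.426 for Stk3, 0.154 for Amotl1, 0.0489 for Sav1 and 0.00173 for Lats2. The coefficients of variation over libraries were 0.349 for Stk3 and 0.653 to 0.748 for Yap1, Wwtr1, Tead1, Tead4, Lats1 and Vgll4, so neighbours among the first 7 do not differ beyond their spread. Per kb of exon, Vgll4 (17.6) and Tead1 (17.0) led and Lats1 (3.04) came after Stk3, Tead4, Yap1 and Wwtr1, so the order depends on which length is used for these 3′-end reads. The order also differed between groups. At P14 controls held 562 reads of Stk3 and 474 of Tead1, Casp2-depleted libraries held 402 reads of Wwtr1, 370 of Stk3 and 346 of Tead1, and per kb of span Yap1 led in P1 (0.963) and P14 controls (0.940), where Lats1 stood at 0.350 CPM per kb at P14. Without P14 control replicate 1 the level of Yap1 in P14 controls was 0.150 CPM per kb, so its lead there rests on that library.

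**Figure D1:**
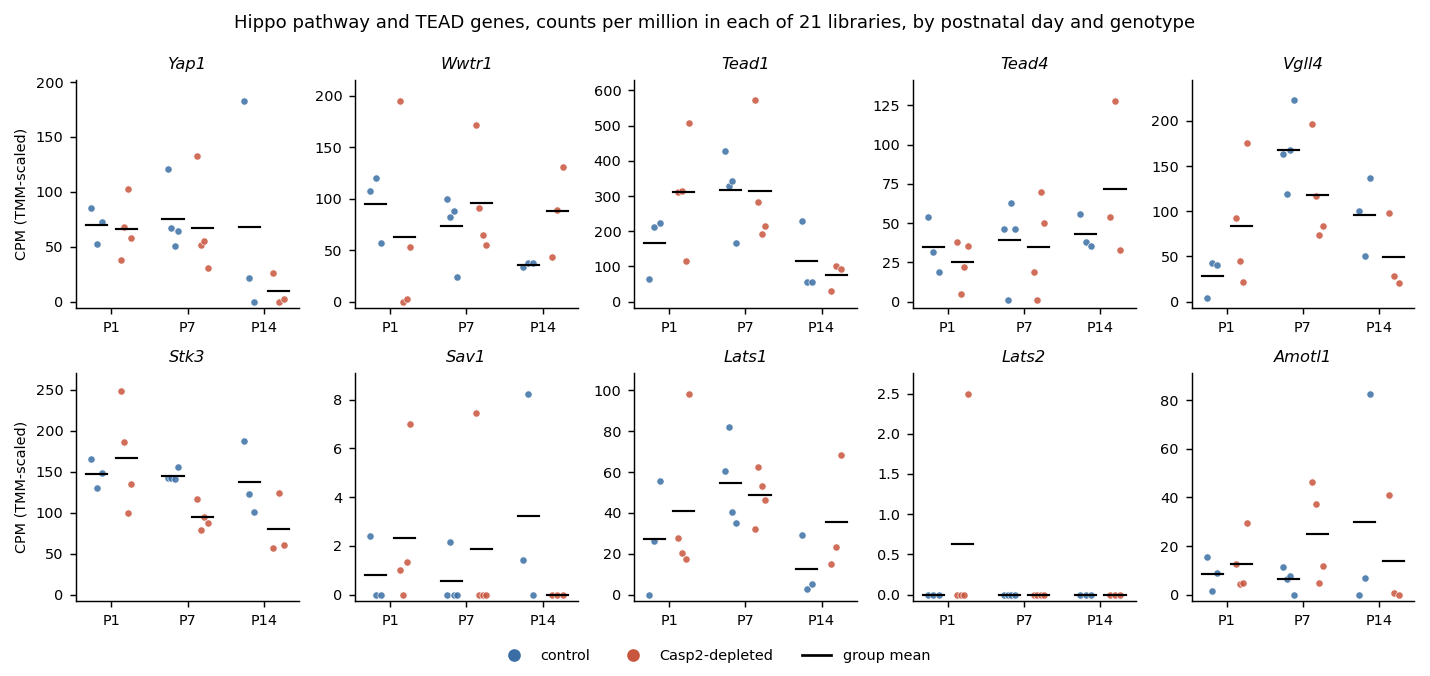
CPM, scaled by TMM factors, of each of the 10 members in each of the 21 libraries, by postnatal day on the x axis and genotype by colour, with a black bar at each group mean. All 3 P14 Casp2-depleted values of Tead1 (30.3 to 102) lie below all 4 P7 Casp2-depleted values (191 to 573), and Lats2 is above 0 in 1 library.

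Of the 9 members that passed the filter on low counts, all but Lats2, 1 was called in 1 of 13 comparisons. Tead1 fell from P7 to P14 in Casp2-depleted nuclei, where 2.83% of all genes tested were called, 575 of 577 of them lower. By edgeR's test 0 of 9 members were called at P7 against P1 in control (0.00982% of all genes called) or Casp2-depleted nuclei (0.0196%), at P14 against P7 in control (1.88%), or at P14 against P1 in control (0.319%) or Casp2-depleted nuclei (1.94%). Between genotypes 0 of 9 were called at P1 (0% of all genes), P7 (0%), P14 (0.167%) or averaged over the days (0.0147%), and 0 of 9 in the interactions of genotype with P7 against P1 (0%), P14 against P7 (0.0245%) and P14 against P1 (0.0638%). The study itself, using limma at these thresholds, reported genes that differed between genotypes at P7, Cdkn1a and Foxm1 among them. The 0% at P7 thus belongs to the fit used here and does not show that the genotypes were alike. At an unadjusted p below 0.05, the members numbered 2 in P14 against P7 and 2 in P14 against P1 of Casp2-depleted nuclei (Tead1 and Yap1), where 16% and 17.5% of all genes passed. They numbered 1 in P7 against P1 (Vgll4, background 6.67%) and 1 in P14 against P7 (Tead1, 14.8%) of controls, 1 between genotypes at P14 (Yap1, 12.8%), 1 in the interaction of P14 against P1 (Vgll4, 11.7%), and 0 in the other 7 comparisons. In those 7 the background was 11.5% for P14 against P1 in controls, 7.4% for P7 against P1 in Casp2-depleted nuclei, 7.34% and 4.22% between genotypes at P1 and P7, 8.4% averaged over the days, and 6.83% and 9.76% for the interactions with P7 against P1 and P14 against P7. These shares of 9 lie near the background or rest on 1 or 2 genes. DESeq2 called Tead1 in P14 against P1 of Casp2-depleted nuclei and no member elsewhere, and limma-voom with TMM or quantile normalization called 0 members in all 13.

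The median log2 fold change of the 9 members was -0.86 from P7 to P14 in Casp2-depleted nuclei, where the median of all genes tested was -0.61, and -0.15 in controls, where that of all genes was -0.75. Of the 9 members, 8 lay below 0 in Casp2-depleted nuclei and 6 in controls, against 60.1% and 62.2% of all genes. Standard errors (SE) were derived from the edgeR test, as the absolute log2 fold change divided by the square root of its F statistic. They are approximate, above all for genes with few reads such as Sav1. Those of the members ran from 0.54 to 3.02 on the log2 scale in the pairwise comparisons. For Sav1 and Amotl1, whose errors were at least 1.91, only very large changes could have been called.

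**Figure D2:**
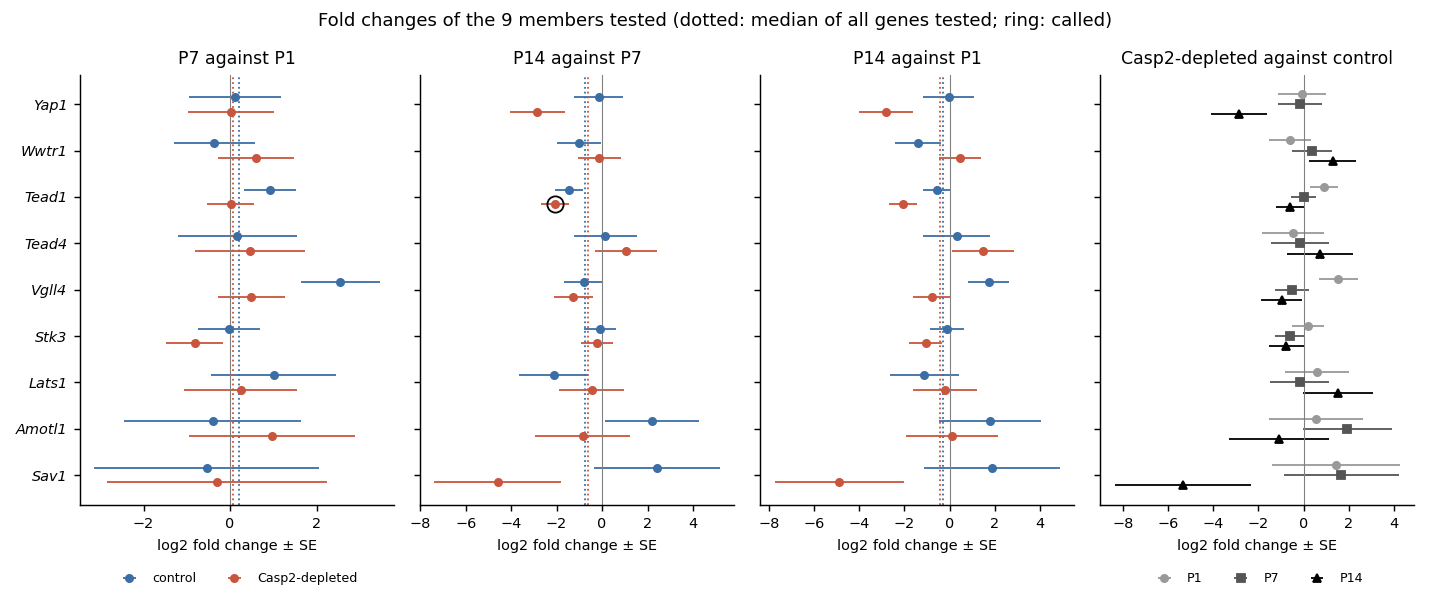
Log2 fold changes with standard errors of the 9 members tested, for each step in days by genotype (colour) and for Casp2-depleted against control at each day (symbol), with the median of all genes tested as a dotted line. A ring marks the call of Tead1 at -2.07 ± 0.63, the error of 1 SE is widest for Sav1 and Amotl1 (1.91 to 3.02), and Vgll4 lies farthest right at P7 against P1 in controls (2.55).

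TEAD1 is the TEAD factor best known from cardiac muscle, and its gene spans chr7:112278522-112506014 (GRCm39, plus strand). It overlaps the long noncoding RNA gene 2310014F06Rik by 911 bases on the other strand. That gene held 1851 reads over its whole length, and whether the counting used strand is not given in the sources used here, so reads there may belong to either gene. In Casp2-depleted nuclei Tead1 stood at 573, 283, 191 and 216 CPM at P7 and at 30.3, 102 and 93.1 CPM at P14. The P14 values did not overlap the P7 values, and 10.9% of all genes tested were lower at P14 without overlap in this comparison. The mean was 316 ± 176 CPM (SD, n = 4) at P7 and 75.0 ± 38.9 CPM (n = 3) at P14, a log2 fold change of -2.07 ± 0.63 (SE) with an adjusted p of 0.0381 by edgeR. Relative to the median of all genes the difference was -1.46, and it was -0.49 without P14 Casp2-depleted replicate 2, -0.93 with the replicate block and -0.25 with the no-gene share as a covariate.

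At P1 Casp2-depleted nuclei held 313, 315, 116 and 507 CPM of Tead1, which also lay above all 3 P14 values, as for 4.78% of all genes. The log2 fold change from P1 to P14 was -2.06 ± 0.63, and its adjusted p of 0.0525 by edgeR missed the threshold. It was called with DESeq2 (adjusted p 0.0491) and without P1 Casp2-depleted replicate 3 (0.0183), P14 control replicate 1 (0.0375) or P14 control replicate 4 (0.0311), and in 31 of 35 other settings it was not. With the no-gene share as a covariate it was -0.99 ± 0.56 (adjusted p 0.547). In controls Tead1 stood at 65.6, 213 and 224 CPM at P1, at 429, 328, 343 and 166 CPM at P7, and at 230.4, 54.8 and 56.9 CPM at P14. A single P14 control library thus reached the P7 range, and the other two lay with the Casp2-depleted libraries of that day. The log2 fold change from P7 to P14 in controls was -1.47 ± 0.61 with an adjusted p of 0.254, and without P14 control replicate 1 it was -2.50 with an adjusted p of 0.0355. The difference between the genotypes in this step was itself not called (interaction -0.60 ± 0.83, adjusted p 1.00 by edgeR), nor was the genotype difference at P14 (-0.60 ± 0.63, adjusted p 0.828). Without P14 control replicate 1 both had the other sign, at 0.43 and 0.42 on the log2 scale.

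The call of Tead1 from P7 to P14 in Casp2-depleted nuclei held in 13 of 35 other settings, with log2 fold changes of -2.25 to -0.68 and adjusted p-values of 0.0225 to 0.881. It was lost with the replicate number as a block (-1.79, adjusted p 0.126), with RLE factors (-1.64, adjusted p 0.171), with limma-voom and TMM (-2.23, adjusted p 0.143), with DESeq2 (-1.64, adjusted p 0.0871), and in 10 of the 21 fits that left out 1 library. Those 10 were P1 control 2, P1 Casp2-depleted 1, P7 control 1 and 2, P7 Casp2-depleted 1 and 2, P14 control 2 and P14 Casp2-depleted 2, 3 and 4, named by replicate number, with adjusted p-values of 0.0659 to 0.345. The highest of these belonged to P7 Casp2-depleted replicate 1, the library with 573 CPM, without which the log2 fold change was -1.50. Among the 13 settings in which the call held is the reported fit without the fold threshold, where it holds by construction.

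**Figure D3:**
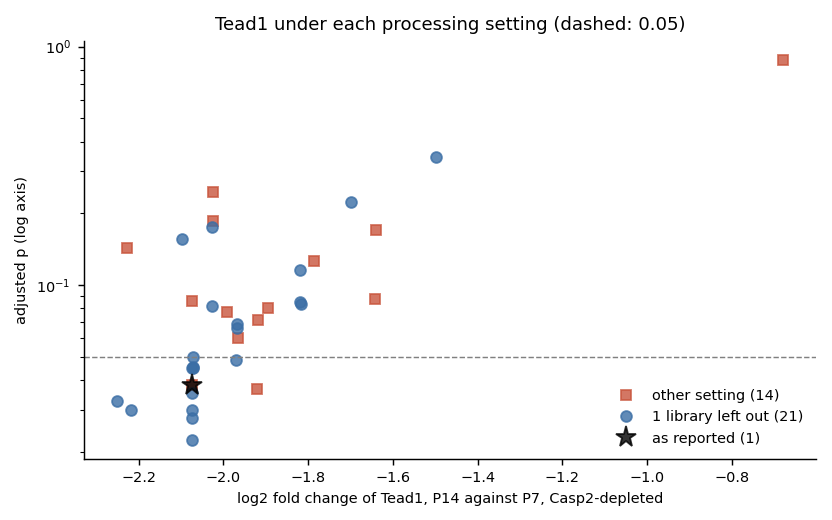
Log2 fold change (x axis) and adjusted p (y axis, log scale) of Tead1 at P14 against P7 in Casp2-depleted nuclei, for the reported fit (star), 21 fits without 1 library (circles) and 14 other settings (squares), with a dashed line at 0.05. Points lie on both sides of the line and the value farthest right, -0.68, comes from the fit with the no-gene share as a covariate.

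The no-gene share moved with Tead1 (Pearson's r -0.83 over 21 libraries, which also differ in day), and r was -0.67 for Vgll4, -0.61 for Lats1, -0.52 for Yap1 and -0.33 to 0.40 for the other 5 members tested. The share was 60.7 to 73.9% in P1 control, 36.8 to 70.6% in P1 Casp2-depleted, 34.3 to 64.3% in P7 Casp2-depleted, 36.7 to 54.7% in P7 control, 63.7 to 75.2% in P14 control and 72.2 to 76.1% in P14 Casp2-depleted libraries. It did not overlap between P7 and P14 in either genotype, nor between P1 and P14 in Casp2-depleted nuclei. For any gene, a fit with this covariate therefore separates the share poorly from day in these comparisons. With this share as a covariate, the log2 fold change of Tead1 from P7 to P14 was -0.68 ± 0.62 in Casp2-depleted nuclei (adjusted p 0.881) and -0.38 ± 0.59 in controls (adjusted p 0.952). The summed level of the 12 CM markers moved in the same direction, from 49629 to 92933 CPM at P7 to 11112 to 24159.8 CPM at P14 in Casp2-depleted nuclei, and from 72067 to 151180 CPM to 10224 to 42902 CPM in controls. Genes with at least 1 read also numbered less at P14 without overlap, 9428 to 12327 against 14006 to 17770 at P7 in Casp2-depleted and 7628 to 13651 against 14416 to 17614 in control libraries. After TMM scaling, as for the CM markers above, the sums of fibroblast, endothelial, macrophage and erythroid markers overlapped between these days in both genotypes. Those of mural markers overlapped in controls but not in Casp2-depleted nuclei, and those of epicardial markers in Casp2-depleted nuclei but not in controls. The 10 fibroblast markers summed to 142 to 273 CPM at P7 and 129 to 322 CPM at P14 in Casp2-depleted nuclei, and to 135 to 262 and 182 to 253 CPM in controls. The 10 endothelial markers summed to 268 to 727 and 429 to 523 CPM in Casp2-depleted nuclei, and to 295 to 427 and 127 to 865 CPM in controls. The 8 mural markers summed to 331 to 706 and 117 to 199 CPM in Casp2-depleted nuclei, without overlap, and to 359 to 550.2 and 60.8 to 393 CPM in controls. The 7 epicardial markers summed to 74.5 to 143 and 11.8 to 107 CPM in Casp2-depleted nuclei and lay higher at P14 in controls, at 33.1 to 69.4 and 112 to 269 CPM. The 15 mitochondrially encoded genes summed to 1637 to 7997 and 871 to 1242 CPM in Casp2-depleted nuclei, lower at P14 without overlap on this scale but overlapping before TMM scaling (1521 to 5854 and 1274 to 1589 CPM), and to 1954 to 3661 and 474 to 2386 CPM in controls. Before TMM scaling, fibroblast sums in Casp2-depleted nuclei were higher at P14 without overlap, at 113 to 200 and 202 to 391 CPM. So were endothelial sums there, at 188 to 532 and 628 to 691 CPM. Macrophage sums in controls were also higher, at 48.8 to 94.8 and 95.4 to 344 CPM. The CM marker sums were lower at P14 without overlap on that scale too. The part of these measures in the Tead1 result was not tested beyond the fit with the no-gene share as a covariate. In these bulk libraries fewer CM nuclei and less RNA per nucleus cannot be told apart.

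**Figure D4:**
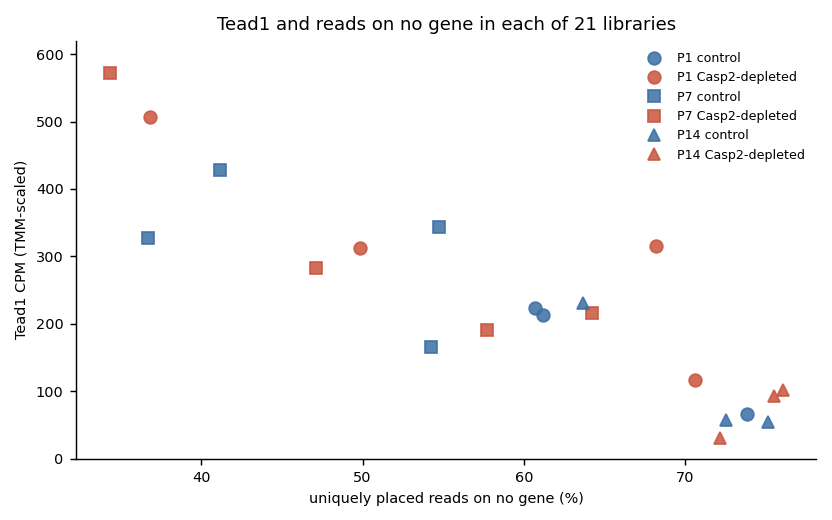
CPM of Tead1 (y axis) against the percentage of uniquely placed reads on no gene (x axis) in each of the 21 libraries, by day (symbol) and genotype (colour). The P14 libraries sit at 63.7% or more of reads on no gene, and the 5 highest Tead1 values lie at 34.3 to 54.7%.

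TEAD4 shares its DNA element with TEAD1, and Tead4 (chr6:128201251-128277786, minus strand) was not called in any comparison. Its mean was 34.7 ± 30.8 CPM (SD, n = 4) at P7 and 71.4 ± 50.1 CPM (n = 3) at P14 in Casp2-depleted nuclei, a log2 fold change of 1.04 ± 1.36 (0.49 to 2.30 over 35 other settings) with an adjusted p of 0.774 by edgeR. The P7 libraries ranged from 0.792 to 69.5 CPM and the P14 libraries from 32.8 to 128 CPM, so the groups overlapped. Tead1 made up 73.4 to 99.7% of the reads of both genes at P7 and 36.1 to 74.0% at P14 in Casp2-depleted nuclei, and 78.1 to 99.8% at P7 and 58.9 to 80.5% at P14 in controls. In 2 of the P14 Casp2-depleted libraries Tead4 thus held more reads than Tead1, with Tead1 shares of 36.1% (95% Wilson interval 28.1 to 45.1%) and 44.2% (39.2 to 49.4%), which cover counting error only. The other TEAD genes measured, Tead2 and Tead3, held 1153 and 1403 reads over the 21 libraries and were not called in any comparison.

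YAP and TAZ are the coactivators that the pathway controls. Yap1 (chr9:7932000-8004661, minus strand) stood at 84.9, 52.8 and 72.3 CPM in P1 control and at 37.7, 68.1, 102 and 58.0 CPM in P1 Casp2-depleted libraries. At P7 it stood at 121, 67.0, 50.4 and 64.5 CPM in control and at 133, 51.5, 55.0 and 30.2 CPM in Casp2-depleted libraries. These 4 groups overlapped throughout. At P14 control libraries held 183, 21.8 and 0 CPM and Casp2-depleted libraries 26.1, 0 and 1.97 CPM, the last of these from 3 reads. By counting error alone a count of 0 allows up to 3 reads, which is 2.28 CPM in that control library and 1.89 CPM in that Casp2-depleted library on the same scale. Libraries of the same group differed by far more, with 259, 29 and 0 reads in the P14 controls. All 3 P14 Casp2-depleted values lay below every P1 and P7 value of that genotype, while P14 controls spanned the whole range of the data. Such a gap held for 10.9% of all genes against P7 and 4.78% against P1.

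From P7 to P14 in Casp2-depleted nuclei the log2 fold change of Yap1 was -2.85 ± 1.19 with an adjusted p of 0.229, and from P1 to P14 -2.82 ± 1.19 with an adjusted p of 0.227 by edgeR. It was called in both only without P14 Casp2-depleted replicate 2, the library with 26.1 CPM, at -6.00 (adjusted p 0.0184) and -5.98 (adjusted p 0.0243). With the no-gene share as a covariate, which did not overlap between P14 and the earlier days in this genotype, the values were -1.99 (adjusted p 0.709) and -2.47 (0.418). In controls from P7 to P14 it was -0.15 ± 1.07. Between genotypes at P14 the difference was -2.86 ± 1.23 with an unadjusted p of 0.0199 and an adjusted p of 0.379. Its interaction with P14 against P7 was -2.70 ± 1.54 with an adjusted p of 0.584, so a difference in this step between genotypes was not shown. These values rest on P14 control replicate 1, the library with 183 CPM. Without it the log2 fold change from P7 to P14 in controls was -2.79 (adjusted p 0.404), the genotype difference at P14 was -0.22 and the interaction was -0.06.

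Wwtr1 (chr3:57363067-57483331, minus strand) gave the opposite order of genotypes at P14. Control libraries held 33.2, 37.5 and 37.2 CPM and Casp2-depleted libraries 43.0, 88.9 and 131 CPM, so the groups did not overlap, as for 3.01% of all genes with higher values in Casp2-depleted nuclei. The log2 fold change was 1.28 ± 1.02 with an adjusted p of 0.671 by edgeR, so it was not called. The 3 P14 control values also lay below the P1 control values of 107.8, 119.7 and 56.4 CPM (log2 fold change -1.39 ± 1.02, adjusted p 0.599), as for 6.41% of all genes. P1 Casp2-depleted libraries ranged from 0 to 195 CPM, wider than any other group of this gene. The share of Yap1 among the reads of Yap1 and Wwtr1 was 30.6 to 56.2% in P1 control, 16.2 to 100% in P1 Casp2-depleted, 36.3 to 72.9% in P7 control and 35.5 to 46.0% in P7 Casp2-depleted libraries. It was 84.6, 36.7 and 0% in the 3 P14 controls and at most 37.8% in the 3 P14 Casp2-depleted libraries, so these groups overlapped.

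VGLL4 competes with YAP for TEAD factors, and Vgll4 (chr6:114837589-114946955, minus strand) had the largest log2 fold change of the 9 members from P1 to P7 in controls. Control libraries held 3.61, 42.3 and 40.5 CPM at P1 and 163, 119.6, 168 and 223 CPM at P7. The lowest P7 library was above the highest P1 library, as for 6.89% of all genes in this comparison. The no-gene share did not overlap between these groups either (60.7 to 73.9% at P1 and 36.7 to 54.7% at P7). The log2 fold change was 2.55 ± 0.92 with an unadjusted p of 0.00541 and an adjusted p of 0.626, when 2 genes of 20368 were called, so it was not called by edgeR. P14 controls, at 100.4, 51.0 and 137 CPM, were still above all P1 controls (1.74 ± 0.92, adjusted p 0.431), as for 1.52% of all genes. In Casp2-depleted nuclei P1 libraries held 93.0, 44.9, 21.7 and 175 CPM and P7 libraries 197, 117, 73.6 and 83.7 CPM, which overlapped, with a log2 fold change of 0.49 ± 0.77. At P14 they held 98.0, 28.4 and 20.3 CPM. The interaction of genotype with P14 against P1 was -2.51 ± 1.25, with an unadjusted p of 0.0449 and an adjusted p of 0.406, and ran from -3.52 to -1.64 over 35 other settings. In 35 other settings the difference between P1 and P7 in controls kept its direction, at 1.65 to 3.21, with adjusted p-values of 0.0648 or more, and with the no-gene share as a covariate it was 1.78 (adjusted p 0.903).

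The kinase MST2 is encoded by Stk3 (chr15:34874700-35179067, minus strand), the steadiest of the members. Its group means ran from 80.5 ± 37.9 CPM (SD, n = 3) in P14 Casp2-depleted to 167 ± 64.6 CPM (n = 4) in P1 Casp2-depleted libraries, and no library was at 0. At P7 control libraries held 142, 143, 141 and 156 CPM and Casp2-depleted libraries 117, 79.3, 94.9 and 87.2 CPM. All Casp2-depleted values were lower, which held for 0.943% of all genes in this comparison. The log2 fold change was -0.62 ± 0.66 with an adjusted p of 1.00 by edgeR. The interval of 1 SE around it takes in 0. As for all members tested, this error comes from the spread shared by genes of like level and not from that of Stk3 itself.

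LATS1 is the kinase that phosphorylates YAP and TAZ. Lats1 (chr10:7556736-7592226, plus strand) ranged from 35.2 to 82.1 CPM in P7 control libraries and stood at 29.0, 3.00 and 5.31 CPM in P14 controls, which lay below all P7 controls. This held for 13.5% of all genes in that comparison, and the log2 fold change of -2.13 ± 1.52 had an adjusted p of 0.451 by edgeR. Without P14 control replicate 1 it was -3.69, and over 35 other settings it ran from -3.69 to -0.75. The value of -0.75 (adjusted p 0.993) came with the no-gene share as a covariate, and that share did not overlap between these groups (36.7 to 54.7% at P7 and 63.7 to 75.2% at P14). P14 Casp2-depleted libraries, at 14.8, 23.3 and 68.2 CPM, overlapped the P7 Casp2-depleted range of 32.2 to 62.6 CPM. Its first 165 bases overlap Pcmt1 on the other strand, and reads there may belong to either gene.

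Lats2 (chr14:57926960-57995845, minus strand) could not be read from these counts. Its 5 reads all lay in P1 Casp2-depleted replicate 4. The annotated gene Gm49361 (chr14:57879534-57983560), on the same strand, covers 82.2% of the span of Lats2 and 95.03% of its exonic bases. Gm49361 itself held 1092 reads in 18 of the 21 libraries. Reads that fall on both genes count for neither when the counting treats them as ambiguous, so the low count of Lats2 is no measure of its expression. Among the pathway genes examined no other gene came near this overlap, the next being Stk4 with 5.54% of its span. A share of Lats1 among both LATS genes was not computed for that reason.

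The scaffold Sav1 (chr12:70003735-70033975, minus strand) held 54 reads and was at 0 in 13 of 21 libraries, with 8.25 CPM as its highest value. All 3 P14 Casp2-depleted libraries were at 0. With 3 reads as the limit over the group, which covers counting error only, this is at least 4.83-fold lower than the 13 reads of the P14 controls. Of these reads 11 lay in replicate 2. Without that library no limit could be given, and without 1 of the P14 Casp2-depleted libraries it was 3.14 to 3.32-fold. It overlaps Atl1 by 9457 bases on the other strand, and Atl1 held 685 reads over its whole length. The angiomotin Amotl1 (chr9:14453262-14556352, minus strand) had 0 to 82.7 CPM and was at 0 in 3 libraries. Neither gene was called in any comparison by edgeR, and P14 controls alone spanned 0, 6.75 and 82.7 CPM of Amotl1.

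The other genes of the pathway were taken from lists of its components. Of 23 kinases and regulators of the core cassette that were tested, 0 rose and 2 fell from P7 to P14 in controls and 0 rose and 1 fell in Casp2-depleted nuclei, where 1.88% and 2.83% of all genes were called. Their median log2 fold changes of -1.24 and -0.96 compare with -0.75 and -0.61 over all genes. Of 16 genes of the STRIPAK phosphatase complex, which holds MST kinases inactive, 2 fell from P7 to P14 in Casp2-depleted nuclei and 0 were called in controls, with medians of -2.55 and -1.59. Of 19 upstream adhesion and scaffold genes 0 were called in any comparison, as were 0 of 4 other TEAD and VGLL genes, with edgeR. Of 17 target genes of YAP and TAZ that were tested, 2 fell from P7 to P14 in both genotypes and 0 rose, with medians of -1.38 in controls and -1.19 in Casp2-depleted nuclei. No list had a called gene between genotypes, at any day, or from P1 to P7.

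The target genes that fell were Ankrd1 and Ccdc80. Ankrd1 (chr19:36089352-36097506) encodes a cardiac ankyrin repeat protein of the sarcomere and nucleus and is a widely used target gene of YAP. Its mean level was 979 ± 745 CPM (SD, n = 3) at P1 and 5060 ± 3858 CPM (n = 4) at P7 in controls, a difference that was not called (2.37 ± 0.97, adjusted p 0.626). At P7 controls held 1399, 10493, 4455 and 3893 CPM and at P14 192, 45.8 and 234 CPM. Casp2-depleted libraries held 3592, 5138, 3848 and 3323 CPM at P7 and 129.7, 21.4 and 55.0 CPM at P14. All P14 libraries lay below all P7 libraries in both genotypes, as for 13.5% of all genes in controls and 10.9% in Casp2-depleted nuclei, with log2 fold changes of -5.01 ± 1.11 (adjusted p 0.0282) in controls and -5.85 ± 1.16 (adjusted p 0.00862) in Casp2-depleted nuclei by edgeR. The interaction was -0.84 ± 1.27 (adjusted p 1.00). The calls held in 26 and 30 of 35 other settings, and both were lost with the no-gene share as a covariate, at -3.84 (adjusted p 0.294) and -4.81 (0.0680), and with limma-voom and TMM, at -4.17 (0.848) and -6.12 (0.836). For these and the calls below, the no-gene share is poorly separated from P7 against P14, as given above. The call in controls was also lost with the replicate number as a block (-4.88, adjusted p 0.0745), and without P7 control replicate 2 or P14 control replicate 1, 2 or 4 (adjusted p 0.0759 to 0.103). That in Casp2-depleted nuclei was lost without P14 Casp2-depleted replicate 3 (adjusted p 0.0644) or 4 (0.0789).

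Ccdc80, which encodes a secreted matrix protein, fell from 202 ± 67.6 to 20.1 ± 32.8 CPM in controls (-3.32 ± 0.96, adjusted p 0.0456) and from 221 ± 162 to 18.8 ± 17.0 CPM in Casp2-depleted nuclei (-3.55 ± 0.97, adjusted p 0.0206). These calls held in 15 and 22 of 35 other settings, and in both genotypes they were lost under the replicate block, with log2 fold changes of -4.10 and -3.53 (adjusted p 0.181 and 0.197), with limma-voom and TMM, at -5.60 and -4.64 (0.0793 and 0.151), and with the no-gene share as a covariate, at -2.44 and -2.46 (0.731 and 0.757). Leaving out 1 library ended the first in 13 and the second in 6 of 21 fits. The best covered target that was not called, Rbms3, stayed at group means of 427 to 634 CPM.

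Mob1b, whose product is a cofactor of LATS kinases, had 0 reads in all 3 P14 control libraries against 319 reads in the 4 P7 and 193 in the 3 P1 control libraries. Taking 3 reads as the limit over the group, it was at least 70.1-fold lower at P14 than at P7 and at least 60.3-fold lower than at P1, with adjusted p-values of 0.00481 and 0.0217 by edgeR. These limits cover counting error only, and the spread between libraries is not in them. P1 Casp2-depleted libraries, for instance, held 96, 0, 43 and 203 reads of Mob1b. Without P1 control replicate 4, which held 115 of the 193 reads, the limit against P1 was 34.3-fold, and without 1 of the P14 controls the limits were 45.7 to 47.4-fold against P7 and 39.3 to 40.7-fold against P1. P14 Casp2-depleted libraries held 77.6, 17.7 and 1.97 CPM and overlapped the P7 range of 17.2 to 95.8 CPM in that genotype. By counting error alone the difference between genotypes at P14 was at least 42.2-fold, and the gene was not called there by edgeR (adjusted p 0.0613). Of the 141 reads behind that limit 110 lay in P14 Casp2-depleted replicate 2, without which it was 13.5-fold, and replicate 4 held only 3 reads. Without 1 of the P14 controls this limit was 27.5 to 28.5-fold. The interactions of genotype with P14 against P7 and P14 against P1 were not called by edgeR either (adjusted p 0.348 and 0.146). Wwc2, a KIBRA family activator of LATS kinases, fell from 409.9 ± 60.0 CPM at P7 to 101 ± 31.8 CPM at P14 in controls (-2.02 ± 0.60, adjusted p 0.0413). In Casp2-depleted nuclei the same step gave -0.96 ± 0.57 (adjusted p 0.349), and the interaction was not called (1.06 ± 0.79, adjusted p 0.775). The call in controls held in 12 of 35 other settings, 6 of them among the 21 fits without 1 library, and was lost with the no-gene share as a covariate (-1.38, adjusted p 0.442). Of the calls of Mob1b, that against P7 held in 32 and that against P1 in 27 of 35 other settings, and the first was lost with the no-gene share as a covariate (adjusted p 0.131), where the fitted log2 fold change was -8.03 against -9.29 as reported. Fitted values of a gene at 0 depend on the prior count.

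In Casp2-depleted nuclei the kinase gene Map4k4, which acts beside the MST kinases on LATS, fell from 1244 ± 455 CPM at P7 to 347 ± 92.1 CPM at P14 (-1.84 ± 0.46, adjusted p 0.00504). The STRIPAK genes Slmap (276 ± 127 to 51.3 ± 39.7 CPM, -2.42 ± 0.70, adjusted p 0.0240) and Strn3 (152 ± 99.5 to 18.8 ± 18.7 CPM, -3.01 ± 0.84, adjusted p 0.0180) fell in the same step. Strn3 was also lower at P14 than at P1 (-2.90 ± 0.84, adjusted p 0.0345), with overlapping libraries, and that call held in 10 of 35 other settings. From P7 to P14 in controls the log2 fold change was -1.24 ± 0.45 for Map4k4 (adjusted p 0.160), -1.41 ± 0.67 for Slmap (0.318) and -0.84 ± 0.76 for Strn3 (0.599), and no interaction with genotype was called (adjusted p 0.973, 0.902 and 0.501), so these falls were not shown to differ between genotypes. Map4k4 held in 28, Slmap in 20 and Strn3 in 22 of 35 other settings from P7 to P14, and both calls of Strn3 were lost under the replicate block (-2.84, adjusted p 0.0592, against P7 and -2.46, adjusted p 0.167, against P1). With the no-gene share as a covariate all of these calls were lost, at -1.31 for Map4k4 (adjusted p 0.0868), -1.59 for Slmap (0.412), -1.38 for Strn3 against P7 (0.661) and -1.05 for Strn3 against P1 (0.831). Map4k4 was lost without P7 Casp2-depleted replicate 2 (-1.47, adjusted p 0.0783) or P14 Casp2-depleted replicate 3 (-1.58, 0.115) or 4 (-1.48, 0.165). With limma-voom all of these calls were lost too, those of Map4k4 at -1.73 (adjusted p 0.0562) with TMM and -0.68 (0.328) with quantile normalization, and so they were in the fit of all 24 libraries (adjusted p 0.227 for Map4k4). The best covered genes that were not called were Tnik of the core cassette, Pard3 and Pals1 of the scaffolds, and Strip2 of STRIPAK, with 6816 to 11922 reads each.

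**Figure D5:**
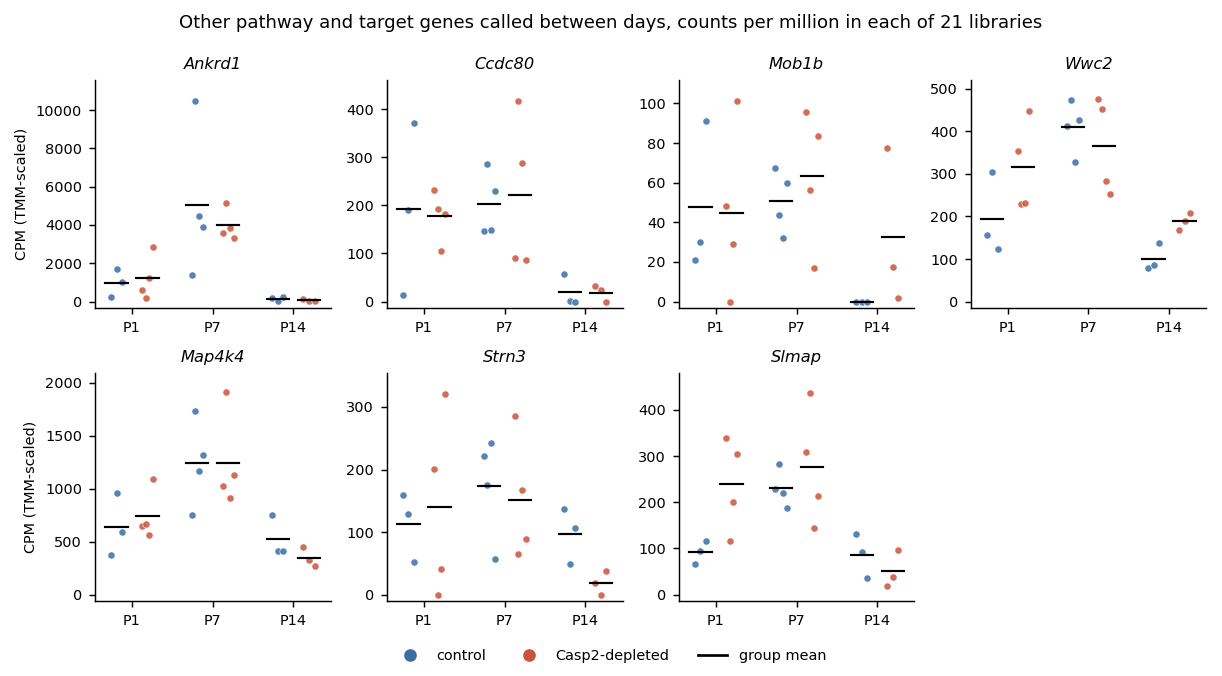
CPM of the 7 other pathway and target genes called between days, in each of the 21 libraries by postnatal day (x axis) and genotype (colour), with a black bar at each group mean. Ankrd1 lies at 1399 CPM or above in all P7 libraries and at 234 CPM or below in all P14 libraries, and Mob1b is at 0 in the 3 P14 controls.

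Genes whose levels ran most like those of Tead1, Yap1 and Wwtr1 were found among 8434 genes with a median of at least 20 reads, by Pearson's r of log2 CPM over the 21 libraries, given as a description. They were Chchd3 (0.92), Fsd2 (0.92) and Eif5 (0.90) for Tead1, Afap1l1 (0.91), Cnot4 (0.91) and Urgcp (0.91) for Yap1, and Swt1 (0.82), Yju2 (0.79) and Blm (0.79) for Wwtr1. Among the 36 pairs of members the median r was 0.10, and the closest pair was Tead1 and Lats1 (0.67), followed by Lats1 and Vgll4 (0.55) and Yap1 and Tead1 (0.54). Libraries also differ in day, genotype and no-gene share, so such values carry all of these.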

How the data were processed

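RNA of PCM1-sorted CM nuclei was sequenced as QuantSeq 3′ libraries (low-input protocol). The authors checked reads with FastQC 0.11.8, trimmed them with cutadapt 4.0, aligned them to GRCm39 (Ensembl 108) with STAR 2.6.1e and deposited raw counts of reads per gene, exons and introns, from HTSeq 2.0.3. Strand and molecular identifier settings are not given in the sources used here. Groups came from the sample titles. The study left out replicate 1 of P1 control, 3 of P14 control and 1 of P14 Casp2-depleted, and these entered an alternative only. Names, coordinates and lengths came from GENCODE vM39 (GRCm39), and promoters from RefSeq (GRCm38.p6), each placed on GRCm39 by a unique exact match.

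Reads on no gene (the no-gene share, 34.3 to 76.1% of uniquely placed reads) stayed out of library sizes. edgeR 4.0.16 in R 4.3.3 was fitted with TMM factors, 6 group means, 15 residual degrees of freedom and a robust quasi-likelihood fit, on genes holding 10 or more reads over the 21 libraries and read in no fewer than 3, and p-values were adjusted by Benjamini-Hochberg over all 20368 genes. The robust option, kept because earlier processing of these data used it, was set after the counts were seen, as was its alternative without it. The spread of these low-input libraries was wide, with a common biological coefficient of variation of 1.50. For all 9 members tested the fit drew the gene's spread fully to that shared by genes of like level (infinite prior degrees of freedom). Their p-values and SE therefore do not measure the spread of each member by itself. The code was tested on simulated data. Where no read was found, 3 reads served as the limit, and such limits and the intervals cover counting error only, not the spread between libraries. Replicates are separate pools of hearts.

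Alternatives were RLE and upper-quartile factors, filterByExpr, no filter, all 24 libraries, the replicate number as a block, thinning to 891817 reads, the no-gene share as a covariate, limma-voom (limma 3.58.1), DESeq2 1.42.0, a fit of the compared groups by themselves, calls without the fold threshold and each library left out. Calls without the fold threshold come from the reported fit, so every reported call holds in that setting by construction and is counted there. File names equate replicate number and batch, which is where the pairing comes from. Deviations of same-numbered libraries of the 2 genotypes correlated at -0.06 to 0.19 over 9 pairs (median 0.05), and those of 28 other pairs at -0.14 to 0.10.

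The members, lists, tests and alternatives were chosen with earlier results of these data known. Beside the members, the text names every listed pathway gene that was called, the 2 with most reads of each list, and the 3 genes most like Tead1, Yap1 and Wwtr1. The symbols Kirrel1, Cttnbp2 and Cttnbp2nl replace misspelt entries of the lists.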

Additional observations from a re-analysis of the deposited data

Results flagged for a closer look

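In groups of 4 libraries, a library was singled out when its gap to the nearest other exceeded the 95% limit of Dixon's test. This was so in 5 of 28 sets of a member and a group, where chance gives about 1 in 20 for normally distributed values. In 3 of the 5, those of Lats2 and Sav1, the other 3 libraries were at 0, so that a few reads meet the limit by construction and that rate does not apply. P1 Casp2-depleted replicate 4 held 98.5 CPM of Lats1, against 17.6 to 27.7 CPM in the other 3 libraries, and all 5 reads of Lats2 (2.50 CPM). P7 control replicate 4 held 156.0 CPM of Stk3, against 141 to 143 CPM in the other 3. Sav1 was above 0 in P7 control replicate 2 alone of its group (2.16 CPM) and in P7 Casp2-depleted replicate 1 alone of its group (7.47 CPM). Each of the Sav1 and Lats2 values rests on at most 16 reads.

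Of the 3 libraries that the study left out, 2 held members above the range of the kept libraries of their group, in CPM of reads on genes, and P14 Casp2-depleted replicate 1 held none. P1 control replicate 1 held 515.6 CPM of Tead1 (87.6 to 217 in the kept libraries), 170.7 CPM of Wwtr1 (54.6 to 144), 130.2 CPM of Amotl1 (1.30 to 20.9), 121.1 CPM of Vgll4 (4.82 to 39.2), 55.0 CPM of Lats1 (0 to 53.8) and 22.4 CPM of Sav1 (0 to 3.22). Of its uniquely placed reads 9.21% fell on no gene, and its mitochondrially encoded genes summed to 18785 CPM, against 701 to 5854 CPM in the kept libraries. P14 control replicate 3, with 16.1% of reads on no gene and 2049 genes detected, held 268.1 CPM of Tead1 (71.1 to 255) and 0 reads of Yap1, Wwtr1, Lats1, Stk3, Sav1 and Amotl1. These libraries entered only the alternative with all 24 libraries.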

How the results depend on the processing

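The call of Tead1 at P14 against P7 in Casp2-depleted nuclei depended on the processing. The number of members called in that comparison, 1 as reported, was 0 with RLE factors, upper-quartile factors, filterByExpr, no filter, all 24 libraries, thinned libraries, the replicate block, the no-gene share as a covariate, both limma-voom fits, DESeq2 and no robust estimation of the spread, and ranged from 0 to 1 over the fits without 1 library. Without P14 Casp2-depleted replicate 2 the member called was Yap1 in place of Tead1. At P14 against P1 in Casp2-depleted nuclei the number was 0 as reported, 1 with DESeq2 and 0 to 1 without 1 library, and at P14 against P7 in controls 0 as reported and 0 to 1 without 1 library. The replicate block changed no other call of a member. Of 4069 log2 fold changes of members under these settings, 267 did not keep their sign, which counts a value of 0 as well as the other sign. All were of differences that were not called, and 0 calls were reversed. The cause was not tested.

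The number of all genes called moved widely. At P14 against P7 it was 577 in Casp2-depleted nuclei (124 with all 24 libraries, 1171 with DESeq2) and 382 in controls (35 with all 24 libraries, 1150 with limma-voom and TMM). At P14 against P1 it was 396 (61 and 1188, with all 24 libraries and DESeq2) and 65 (14 and 521, the same settings). Between genotypes at P14 it was 34 (1 with the compared groups fitted alone, 662 with DESeq2). At P7 against P1 it was 2 in controls (0 to 93 over these settings) and 4 in Casp2-depleted nuclei (0 to 46). Between genotypes it was 0 at P1 (up to 105), 0 at P7 (up to 25) and 3 averaged over the days (0 to 214), and in the interactions with P7 against P1, P14 against P7 and P14 against P1 it was 0 (up to 66), 5 (0 to 246) and 13 (1 to 403).

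Levels of the sparse member Sav1 depended on the prior count or scaling, and a part of depth in this was not tested. Mean log2 CPM moved by over 1 SD in 10 values with another prior count or scaling, 5 of them of Sav1. Scaling shifts the median of all genes, for P14 against P7 in Casp2-depleted nuclei from -0.61 with TMM to -0.26 with RLE, and Tead1 relative to it was -1.46 and -1.38.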
